A study of Mus musculus with 86 samples.

Results

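Btbd18 encodes a nuclear protein with a BTB domain that germ cells need for transcription of many piRNA-generating loci, and the 6 libraries described here are testis RNA of mice homozygous for its knockout: 3 libraries from postnatal day 10 (P10) and 3 from P18. They were chosen by their labels alone and are 6 of the 86 samples of the series. Every group was of a C57BL/6 and 129/SvJ hybrid strain, and the controls, 3 libraries at P10 and 3 at P18, came from Btbd18 heterozygous mice, so these too carry 1 knockout allele. Heterozygous and knockout testes of P14 and P28, with 2 libraries a group, complete a set of 20 testis libraries made from poly(A) RNA of whole testes with a Nextera kit. No cell type was purified, the construction of the allele is not described in the labels, and nothing in the labels ties each library to its own animal. The p-values therefore rest on how far these libraries differ from each other, a spread that may be technical.

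Male germ cells of the juvenile mouse enter meiosis nearly together. Around P10 the testis holds spermatogonia, preleptotene and leptotene cells among many Sertoli cells, and by P18 spermatocytes in pachytene, the long stage of prophase in which homologous chromosomes are synapsed and recombine, are plentiful. Pachytene spermatocytes switch on a large set of genes, among them the pachytene piRNA loci, many enzymes and flagellar parts used later by spermatids, and they silence the X and Y chromosomes. The comparison asked how much of that programme ran in testes without Btbd18, by setting P18 against P10 within the knockout, and the same ages in heterozygotes beside it.

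Depth was 5822808 to 8825724 counts in the 6 knockout libraries and 6578653 to 8889581 in the 6 heterozygous ones, and 16334 of the 24276 features passed a filter on low counts. Levels are CPM, read counts scaled to a common library size by TMM. They are not per length, so a level is compared between libraries and not between genes. Values of single libraries are given in the order of replicates 1, 2 and 3. Knockout libraries held few reads over Btbd18 itself (chromosome 2, 84659072 to 84668789), with 2.49, 2.35 and 1.8 CPM at P10 and 4.22, 2.63 and 3.88 CPM at P18, against 14.6, 12.9 and 14 CPM and 16.1, 12.5 and 12.4 CPM in heterozygotes. All 6 knockout values lay below all 6 heterozygous ones, as the labels would have it. Within the knockout the gene was higher at P18 by 0.70 ± 0.23 (log2, standard error; adjusted p = 0.0114), a call that was lost without P18 knockout replicate 1 (adjusted p = 0.113), with total-count scaling (0.0682) and with only the libraries compared (0.059).

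Of the tested features, 68.1% moved between P10 and P18 without Btbd18. In knockouts 5706 features rose (34.9% of those tested) and 5419 fell (33.2%) at an adjusted p below 0.05 in edgeR's quasi-likelihood test. Beyond 2-fold, 2385 rose (14.6%) and 980 fell (6.00%). In heterozygotes 6269 rose (38.4%) and 5649 fell (34.6%), with 3013 rises (18.4%) and 1397 falls (8.55%) beyond 2-fold. TMM places the median change of all features at 0.00. With total-count scaling that median was -0.20 (log2), 4616 features rose and 6923 fell, and the share of rises among called features went from 51.3% to 40.0%, so changes are relative to the rest of the library.

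Most of what normally rises also rose in the knockout, by somewhat less. Of the 3013 features that rose beyond 2-fold in heterozygotes, 2748 (91.2%) rose in knockouts, 263 were not called and 2 fell. Beyond 2-fold in both genotypes rose 2285 features, which are 75.8% of the heterozygous and 95.8% of the knockout rises. The median change of the 3013 features was 2.33 in knockouts and 3.09 in heterozygotes (log2), but these were picked for their rise in heterozygotes, which favours that side. For the 2385 features picked for their rise in knockouts, the median difference of the change, knockout minus heterozygous, was -0.27. Of the 1397 normal falls beyond 2-fold, 1346 fell in knockouts, and 815 features fell beyond 2-fold in both. The 2 features that went opposite ways, Zan and 9630028B13Rik, were named after their values were seen. Zan, which encodes the sperm protein zonadhesin, had 0.905, 0.822 and 0.771 CPM at P10 and 0.114, 0 and 0.176 CPM at P18 in knockouts, against 1.15, 1.84 and 5.01 CPM in P18 heterozygotes, a difference in change that missed the threshold (adjusted p = 0.0636) and was called in 5 alternatives, among them DESeq2 (0.00551). The knockout fall of Zan was not called without P18 knockout replicate 2 (adjusted p = 0.0511), and that of 9630028B13Rik not without P10 replicate 2, P18 replicate 1 or P18 replicate 3 (0.0713, 0.0983 and 0.062).

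**Figure D1:**
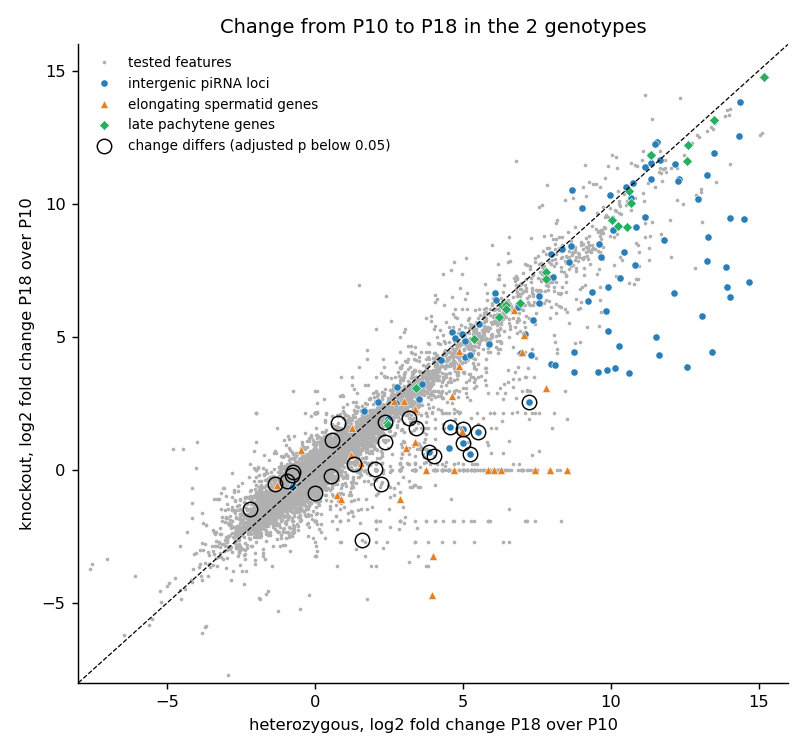
Log2 fold change from P10 to P18 in heterozygous (x axis) and knockout (y axis) testes for the 16334 tested features, with equal change on the dashed line; blue circles are intergenic piRNA loci, green diamonds late pachytene genes, orange triangles elongating spermatid genes, and black rings the 25 features whose change differed. Late pachytene genes lie near the line, 20 of 21 on its lower side (median difference -0.47), and many piRNA loci lie further below it (median -1.66 over all loci). Spermatid genes in a row at 0 had no counts at either age in knockouts.

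The test of the difference itself, knockout change minus heterozygous change, called 7 features as higher (0.0429% of those tested) and 18 as lower (0.110%) in knockouts, 25 in all (0.153%). At an unadjusted p below 0.05 there were 858 and 1068, and DESeq2 called 64 and 116. For 11012 features (67.4%) the 95% interval of the difference lay within 2-fold on both sides, and for the other 5322 it did not, so a change of that size was not bounded there. Both counts depended on single libraries. Without P18 knockout replicate 2 they were 73 and 124, and without P18 heterozygous replicate 3 they were 39 and 49. All 25 features were also called in both settings, but with only the 12 libraries of P10 and P18 11 of them were, and when other single libraries were left out, 12 to 22. The higher count was 17 without P10 knockout replicate 2, 14 without P10 heterozygous replicate 3, 4 without P10 knockout replicate 1 or P18 heterozygous replicate 1, 3 without P18 knockout replicate 1 and 2 without P10 heterozygous replicate 1. The pair was 3 and 10 without P10 knockout replicate 3 and 1 and 11 without P18 heterozygous replicate 2.

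The 2 libraries named first stand apart within their groups. P18 knockout replicate 2 was ahead of replicates 1 and 3 in germ cell genes: the summed level of late pachytene genes was 7000, 9830 and 6820 CPM, against 12100, 9740 and 9090 CPM in heterozygotes. P18 heterozygous replicate 3 was ahead of its group in the features that normally rise after P18, as given below. At P10, knockout replicate 1 was ahead in chromosome axis genes, with 1230 CPM summed against 958 and 904 CPM. Values without the first pair are given beside some of the list results that they moved. Without P18 knockout replicate 2 the knockout median change of germ cell isozymes also went from 3.49 to 3, and that of Leydig cell markers from -0.13 to 0.1. Without P18 heterozygous replicate 3 the heterozygous isozyme median went from 4.19 to 3.6. In whole testis, fewer cells of a type and less RNA per cell cannot be told apart.

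Features that rise early in heterozygotes also rose in knockouts by P18. For this, features were sorted by the age at which they rose beyond 2-fold in heterozygotes, a choice that favours the heterozygous values. The latest group holds none that was called beyond 2-fold in heterozygotes between P10 and P14 or between P14 and P18. A small change of that group by P18 is thus partly set by the sorting. In knockouts 3676 features rose from P10 to P14 (22.5%) and 3243 fell (19.9%), 42.4% together, and 4678 rose (28.6%) and 4075 fell (24.9%) from P14 to P18, 53.6% together. The first wave, 1009 features between P10 and P14, rose in knockouts by P18 for 996 (median 4.33, against 4.96 in heterozygotes). The median log2(CPM + 0.5) of this wave was 1.28, 1.10 and 1.12 at P10 in knockouts, 3.69 and 3.17 at P14 and 5.81, 6.06 and 5.83 at P18. Heterozygous libraries stood at 0.99, 0.94 and 0.90 at P10, at 4.27 and 3.98 at P14 and at 6.42, 6.26 and 6.15 at P18. Knockout libraries thus lay above all heterozygous ones at P10 and below them at both later ages. The smaller knockout change therefore also holds a higher start. Summed P10 levels were higher in knockouts for recombination factors (1150 to 1260 against 830 to 1080 CPM) and late pachytene genes (150 to 172 against 138 to 140 CPM). Those of intergenic piRNA loci overlapped.

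In the second wave, 1232 features that rose beyond 2-fold between P14 and P18 and were not in the first, 1030 rose in knockouts. Another 194 were not called (median 2.36 against 3.17). Its level went from 0.88 and 0.73 at P14 to 3.32, 3.66 and 3.08 at P18 in knockouts, and the heterozygous P18 libraries had 3.85, 3.63 and 3.80. Here replicate 2 of the knockouts overlapped the heterozygous range and the others lay below it. The change was called lower in knockouts for 7 features of the first wave and 9 of the second. With piRNA loci set aside, 2 of these calls remained in the first wave and 7 in the second. The first wave then held 918 features, with medians of 4.08 in knockouts and 4.55 in heterozygotes. With piRNA loci kept, the calls were 33 and 55 without P18 knockout replicate 2, and 15 of each without P18 heterozygous replicate 3.

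The third wave, 1423 features that rose beyond 2-fold between P18 and P28 and in neither earlier interval, showed no general rise in knockouts at P18. Of these features 246 rose (17.3%) and 281 fell (19.7%), both below the background of 34.9% and 33.2%, and the median change was 0.00. Without P18 knockout replicate 2 the counts were 223 and 239. Knockouts had at most 3 counts over each age for 468 features, which could hardly be called, and this lowers both shares. The median was -0.12 without those 468 and with features at 0 at 1 age set to their bound. In heterozygotes 426 of the wave rose from P10 to P18, or 170 when tested beyond 2-fold. The level was 0.10, -0.01 and 0.04 at P18, as at P10 (-0.07, -0.04 and 0.02), and reached 0.22 and 0.19 at P28 in knockouts against 4.77 and 4.78 in heterozygotes. Among P18 heterozygotes, replicate 3 stood at 0.74 and the other two at -0.01 and 0.04. Without it the heterozygous median change of this wave went from 0.38 to 0.00.

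**Figure D2:**
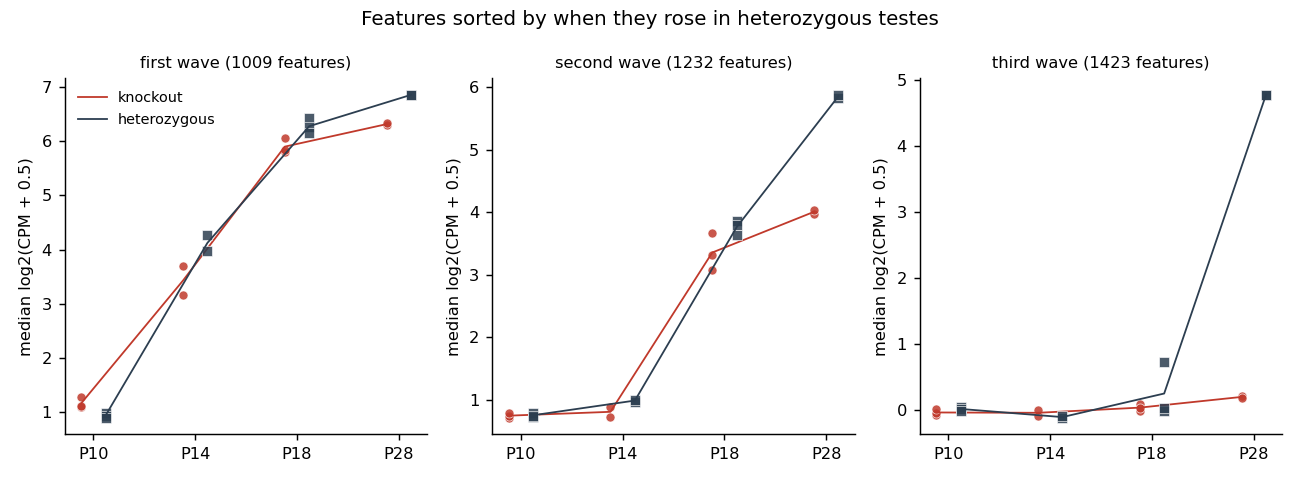
Median log2(CPM + 0.5) in each testis library (points; lines join group means) for features grouped by when they rose beyond 2-fold in heterozygotes: P10 to P14, P14 to P18 and P18 to P28. In knockouts the first 2 waves rose by P18 and the third stayed between -0.08 and 0.22 at all 4 ages.

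Meiotic entry was already under way at P10 and its genes went both ways. Of 9 regulators tested, 5 rose (55.6%, against 34.9% of all features): Dazl, Ythdc2, Gm1564, Rbm46 and Tex14. The 3 that fell, Stra8, Sohlh1 and Zglp1, were 33.3%, near the 33.2% of all features. The median change was 0.27 against 0.00 for all features. The rise of Tex14 was lost with total counts (0.05, adjusted p = 0.569). Stra8, the retinoic acid target that starts meiosis, had 144, 131 and 113 CPM at P10 and 79.2, 76 and 67.7 CPM at P18, a fall of -0.80 ± 0.15 (adjusted p = 0.000124). At P14 it stood at 172 and 153 CPM, above both. Gm1564, the gene also known as Meioc, went up from 162, 119 and 123 to 464, 685 and 605 CPM (2.12 ± 0.16, adjusted p = 4.58e-10), and Ythdc2, the RNA helicase that partners with it, from 67.2, 71.9 and 68.6 to 166, 198 and 208 CPM.

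Genes of double-strand break formation, which start recombination, rose for 5 of 8 (62.5%, against 34.9% of all features) and fell for 1, Mei4. The 5 were Spo11, Hormad1, Prdm9, Ccdc36 and Gm960. Ccdc36 and Gm960 lost their call with total counts or without P10 knockout replicate 3, which left 3 rises, and Gm960 also without P18 knockout replicate 1. Spo11, the enzyme that cuts the DNA, climbed from 5.43, 3.05 and 3.34 to 73.2, 118 and 81.5 CPM. That is 22.8-fold (log2 4.51 ± 0.23, adjusted p = 5.33e-13), and heterozygotes reached 86.8, 90.6 and 65.6 CPM, so the groups overlapped at P18. Prdm9, the methyltransferase that places the hotspots, rose by only 0.66 ± 0.17 (adjusted p = 0.00179).

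Recombination and crossover factors rose for 16 of 22 (72.7%, against 34.9% of all features), 13 of them beyond 2-fold, and 3 fell. Dmc1, the strand-exchange protein of early recombination, was already at 34.9, 25.2 and 22.5 CPM at P10 and had 63.5, 52.2 and 66.6 CPM at P18 (1.14 ± 0.16, adjusted p = 3.12e-06). Factors of the crossover step moved further: Cntd1, needed to mature crossover sites, rose from 5.21, 3.52 and 3.98 to 184, 226 and 252 CPM (5.69 ± 0.20, adjusted p = 4.28e-15). Msh4 rose by 3.41 ± 0.20, the helicase gene Hfm1 by 3.14 ± 0.17 and Mlh3, of the late crossover nuclease, by 1.54 ± 0.16. The 3 that fell were Tex11 (-0.68), Trip13 (-0.55) and Exo1 (-0.28), and the last was not called without any 1 of 4 knockout libraries, P10 replicates 2 and 3 and P18 replicates 2 and 3 (adjusted p up to 0.11). None of the 22 differed in its change between genotypes, and the interval was within 2-fold for 13.

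The chromosome axis and synaptonemal complex, the scaffold that holds homologues together, rose for 12 of 14 tested genes (85.7%, against 34.9% of all features). Beyond 2-fold 11 rose (78.6%, against 14.6%). Sycp3, of the axis, went from 116, 59.9 and 61.6 CPM to 429, 499 and 486 CPM, and Sycp1, the transverse filament, from 225, 131 and 125 to 756, 848 and 979 CPM. Both were lowest at P10 in replicates 2 and 3 and did not overlap between ages. Sycp3 rose by 2.57 ± 0.18 (adjusted p = 6.44e-11), and its change differed from that of heterozygotes by -0.54 (95% interval -1.05 to -0.04, adjusted p = 0.392). At P18 the heterozygotes held 456, 469 and 539 CPM of Sycp3, within which the knockouts largely fell. Rec8, the meiotic cohesin that is loaded before meiotic replication, was the 1 that fell, from 52.4, 43 and 38.1 to 18.2, 15.6 and 20.3 CPM (-1.31 ± 0.26, adjusted p = 0.000135). Rad21l, the other meiotic kleisin, was not called at 0.38 ± 0.19 (adjusted p = 0.0745).

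Telomere attachment genes, which tether chromosome ends to the nuclear envelope, rose for 5 of 7 (71.4%, against 34.9% of all features). Ccdc155, the outer envelope protein that links to dynein, rose by 4.08 ± 0.21, Ccdc79 (Terb1) by 2.90 ± 0.20 and Spdya, which recruits Cdk2 to telomeres, from 13.1, 7.63 and 3.85 to 130, 211 and 168 CPM (4.34 ± 0.26, adjusted p = 7.41e-12). Sun1 and Cdk2 rose by 0.96 and 0.62. Sun2 was not called at 0.15, and 4930524N10Rik had no counts at either age in knockouts. In heterozygotes 6 of the 7 rose. The list median was 0.96 in knockouts and 3.37 in heterozygotes, with a median difference of the change of -0.31 and no gene called for it. Without the gene at no counts the knockout median was 1.93, which is not matched to the heterozygous one over all 7.

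**Figure D3:**
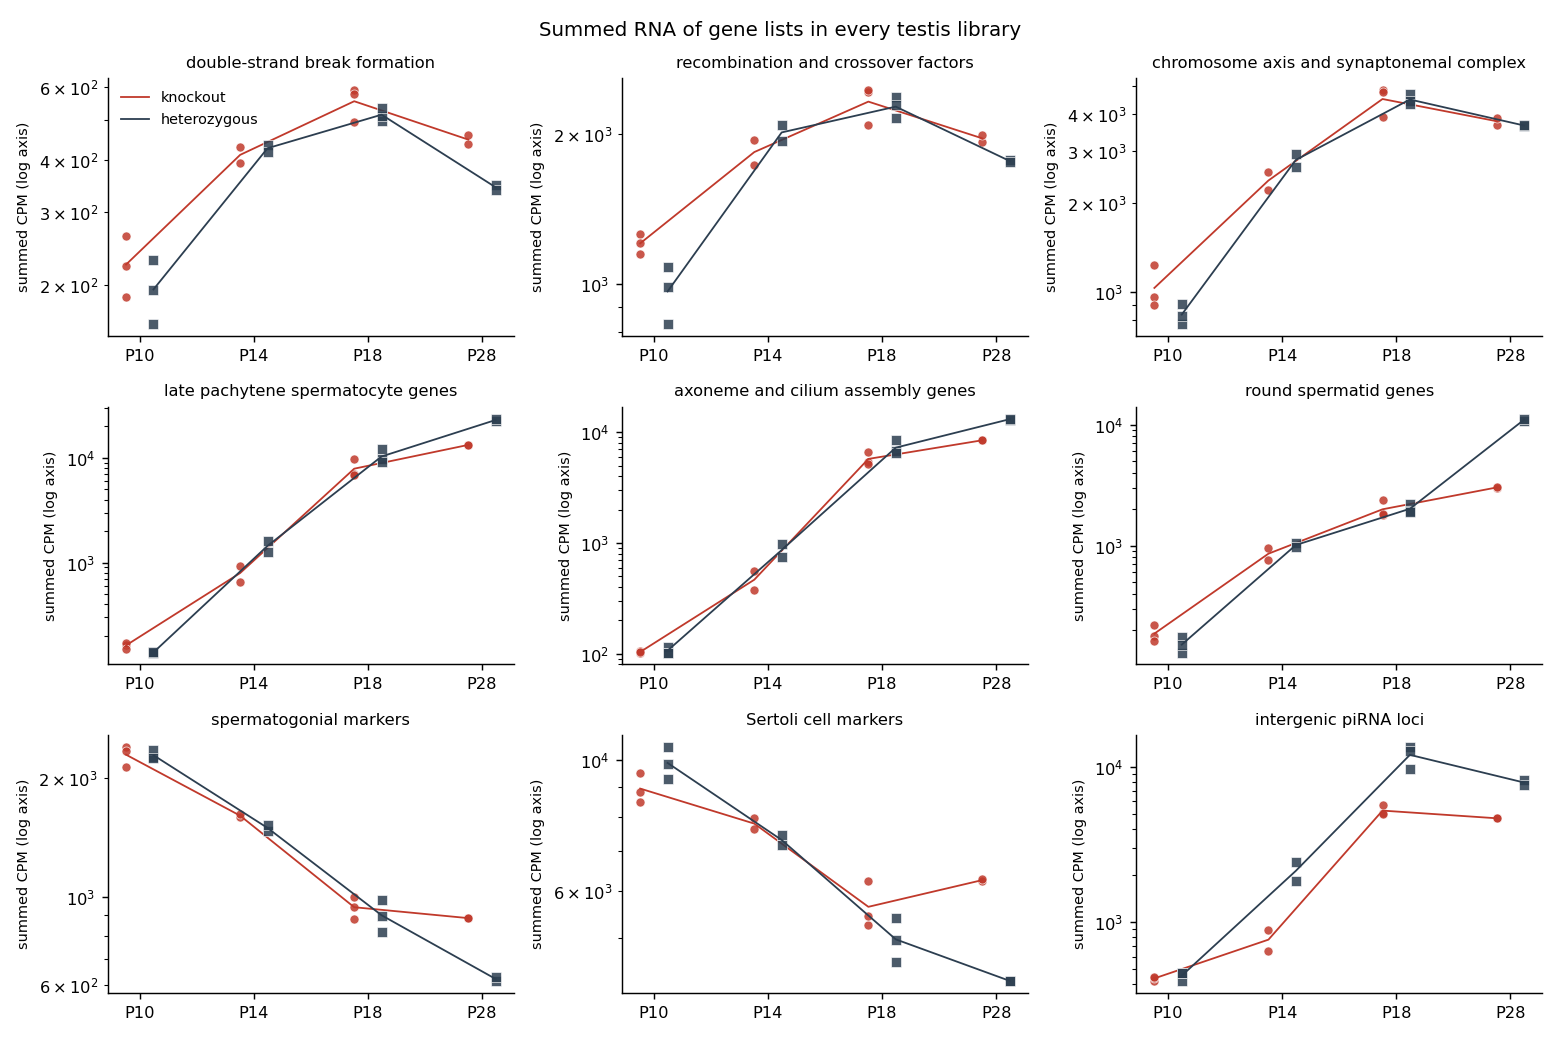
Summed CPM (log axis) of 8 gene lists and of the intergenic piRNA loci in each of the 20 testis libraries, by age; circles are knockout, squares heterozygous libraries, and lines join group means. Break, recombination and axis genes overlap between genotypes at P18, while the P18 knockouts lie at 4960 to 5710 CPM for piRNA loci against 9720 to 13400 CPM in heterozygotes.

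Regulators of pachytene transcription came up in knockouts for 7 of 8 genes (87.5%, against 34.9% of all features), with a median of 3.07 against 3.42 in heterozygotes. The list holds Btbd18 itself, whose low and unstable rise was given above, so 6 of the other 7 rose. Mybl1 (A-MYB), the master activator of the pachytene programme, had 35, 21.1 and 20.7 CPM at P10, 96.8 and 84.2 CPM at P14 and 185, 281 and 221 CPM at P18. It rose by 3.15 ± 0.17 (adjusted p = 2.15e-12), and the difference from heterozygotes was -0.07 (95% interval -0.57 to 0.43). Tcfl5, a helix-loop-helix factor, rose by 2.66 ± 0.14, Rfx2, the activator of ciliary genes, by 4.43 ± 0.13 and Kctd19, a partner of the pachytene factor Zfp541, from 1.02, 0.117 and 0.514 to 496, 639 and 440 CPM (9.85 ± 0.26, adjusted p = 4.48e-16). Zfp541 rose by 3.63 ± 0.15 and Crem, later the activator of spermatid genes, by 2.98 ± 0.16. Taf7l, X-linked, fell by 0.56 on the log2 scale.

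Promoters of the risers were searched for the binding letters of those regulators, in windows from 250 bases before to 50 bases after the gene start (RefSeq, GRCm38.p6), which 11969 of 16110 tested genes had. The MYB motif TAACGG, on either strand, was in 115 of 1665 genes that rose beyond 2-fold in knockouts (6.91%), in 17 of 675 that fell (2.52%) and in 508 of all 11969 (4.24%). The RFX motif (the X-box) was in 1.62%, 0.444% and 0.66% of the same windows, and the cyclic AMP element TGACGTCA in 3.06%, 2.22% and 3.29%. These are shares of letters in windows and not of bound sites. Stretches with a match, in capitals (TAACGG or its reverse complement CCGTTA, and TGACGTCA for Dnah6), are shown for genes of 6 roles described here, each 5′ to 3′ along its gene: the axis gene Sycp1 (chr3:102936108-102936153, minus strand), the telomere gene Spdya (chr17:71551882-71551927, plus), the regulator Tcfl5 (chr2:180642784-180642829, minus), the division gene Hspa2 (chr12:76404175-76404220, plus), the isozyme gene Ldhc (chr7:46861209-46861254, plus) and the axoneme gene Dnah6 (chr6:73221779-73221826, minus).
Sycp1: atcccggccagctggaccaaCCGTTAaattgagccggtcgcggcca
Spdya: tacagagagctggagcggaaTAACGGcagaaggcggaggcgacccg
Tcfl5: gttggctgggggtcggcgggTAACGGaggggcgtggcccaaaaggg
Hspa2: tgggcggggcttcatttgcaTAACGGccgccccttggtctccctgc
Ldhc: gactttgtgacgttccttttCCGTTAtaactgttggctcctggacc
Dnah6: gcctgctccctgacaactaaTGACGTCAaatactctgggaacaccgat
The match lies 27 bases before the start in Sycp1, 28 in Ldhc, 112 in Tcfl5, 153 in Spdya, 167 in Dnah6 and 169 in Hspa2. All 6 genes rose beyond 2-fold in the knockout.

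Regulators of the meiotic divisions rose for 15 of 21 (71.4%, against 34.9% of all features) and fell for 6 (28.6%, against 33.2%). Hspa2, the chaperone that lets CDK1 bind cyclin B1 at the end of prophase, had 58.6, 57.7 and 58.9 CPM at P10 and 1350, 1530 and 1410 CPM at P18, a 24.4-fold rise (4.61 ± 0.12, adjusted p = 3.87e-16). Heterozygotes reached 1660, 1350 and 1260 CPM, and the change differed by 0.01 with a 95% interval of -0.31 to 0.33. Nek2, a centrosome kinase, rose by 2.55 ± 0.10 and Fbxo43 (Emi2), an inhibitor of cyclin destruction, by 5.70 ± 0.27. Ccna1, the cyclin A of meiosis, was near 0 at P10 and P14 and spread widely at P18 in knockouts, with 54.5, 83.4 and 26.6 CPM against 113, 90.4 and 109 CPM in heterozygotes (difference -0.89, 95% interval -3.18 to 1.39).

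Plk1, the kinase that dismantles the synaptonemal complex and drives exit from prophase, was the 1 division gene whose change differed. It fell in knockouts from 46.9, 47.8 and 44.9 to 26.8, 26.1 and 24 CPM (-0.86 ± 0.11, adjusted p = 8.28e-07) and was not called in heterozygotes, where P10 libraries had 48.9, 45.2 and 44.2 CPM and P18 libraries 50.2, 37.7 and 49.5 CPM. All P18 knockouts lay below all P18 heterozygotes. The difference was -0.85 (95% interval -1.16 to -0.53, adjusted p = 0.0235), and it missed the threshold in 8 of the alternatives (adjusted p up to 0.0766). Aurkb, a kinase of chromosome segregation, fell by 0.90 on the log2 scale and Cdc25c, the phosphatase that activates CDK1, by 1.16, both with no called difference.

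The late pachytene list rose as a whole: 21 of 21 tested genes, all beyond 2-fold, which 14.6% of all features did. The median was 7.45 in knockouts and 7.81 in heterozygotes. Ldhc, the germ cell lactate dehydrogenase, went from 0.34, 0.352 and 0.514 CPM to 1150, 1590 and 1140 CPM (11.62 ± 0.36, adjusted p = 1.11e-15), with 139 and 69.3 CPM at P14. Clgn, a chaperone of the endoplasmic reticulum, rose from 12.3, 12.1 and 8.48 to 532, 691 and 556 CPM. Adam3, a sperm surface protein, had 1 count in the 3 P10 libraries and 249, 335 and 187 CPM at P18, a ratio of 6460 with a counting interval from 1160 to 255000. In all of these, replicate 2 was the highest P18 knockout. The difference from heterozygotes was negative for 20 of 21 genes with a median of -0.47, no gene was called, and for 20 the interval reached past 2-fold. Without P18 knockout replicate 2 the median difference was -0.59 and 2 genes were called lower. Hist1h1t, the testis linker histone, was measured at only 2 counts at P10 and 16 at P18.

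Enzymes that replace their somatic forms in germ cells rose for 14 of 20 (70%, against 34.9% of all features) and fell for 2 (10%, against 33.2%). Slc2a3, a glucose transporter, climbed from 36, 29.2 and 33.4 to 1760, 2440 and 1860 CPM (5.94 ± 0.20, adjusted p = 2.32e-15). Pdha2, of pyruvate dehydrogenase, rose by 4.91 ± 0.18. The 2 that fell were aldolase retrogenes: Aldoart1 from 20.1, 19.4 and 15.5 to 11.4, 10.5 and 11.5 CPM, and Aldoart2, whose call was lost without P10 knockout replicate 3 (adjusted p = 0.0674). Reads of such copies can be shared with the parent gene.

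Axoneme and cilium genes, the parts of the sperm tail that spermatocytes already transcribe, rose for 26 of 27 (96.3%, against 34.9% of all features). All 26 rose beyond 2-fold, and the list median was 6.21, against 6.58 in heterozygotes. Dnah17, an outer arm dynein, had 2.04, 2.35 and 1.28 CPM at P10, 8.07 and 4.49 CPM at P14 and 576, 705 and 453 CPM at P18. Most of its rise thus came after P14 (6.55, adjusted p = 7.54e-14). Rsph1, of the radial spoke head, rose by 6.66 ± 0.16 and Dnah6, an inner arm dynein, by 7.40 ± 0.22. Foxj1, the ciliary transcription factor, was the 1 not called, with 1.81, 3.76 and 2.57 CPM at P10 and 4.8, 3.94 and 2.82 CPM at P18 against a mean of 11.1 CPM in P18 heterozygotes.

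Proteins of the piRNA pathway rose for 22 of 26 (84.6%, against 34.9% of all features) and fell for 3 (11.5%, against 33.2%). The median was 1.74 against 1.95 in heterozygotes. Piwil1 (MIWI), the pachytene PIWI protein, went from 9.05, 12.4 and 8.99 to 717, 868 and 786 CPM (6.28 ± 0.20, adjusted p = 1.40e-15), and heterozygotes reached 1280, 1060 and 848 CPM. Tdrd6, a Tudor scaffold of the chromatoid body, climbed from 1.7, 0.704 and 0.514 to 545, 741 and 448 CPM. Piwil2 (MILI) was high throughout and rose by 1.39 ± 0.13, and Piwil4 (MIWI2), the fetal PIWI protein, fell from 12.3, 14.9 and 17.6 to 5.02, 4.11 and 3.7 CPM. Pnldc1 and Fkbp6 fell by 0.33 and 0.14 on the log2 scale. The call of Fkbp6 was lost in 12 alternatives and that of Pnldc1 without P10 knockout replicate 3.

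The piRNA loci themselves came up too, to a lower summed level than in heterozygotes. Of 99 intergenic loci tested, 94 rose in knockouts (94.9%, against 34.9% of all features), 2 fell and 3 were not called. Beyond 2-fold 90 rose (90.9%, against 14.6%). The median change was 6.36 against 9.57 in heterozygotes, or 5.12 with the 28 loci at 0 at P10 set to their bound of 3 counts over the group. No bound was applied to the heterozygous median, which compares with 6.36. Summed, the loci went from 421 to 445 CPM at P10 to 4960 to 5710 CPM at P18, and heterozygotes from 417 to 473 CPM to 9720 to 13400 CPM. At P18 the knockout level was at least 50% of the heterozygous level at 47 loci and under 10% at 30, of which 28 had still risen from P10.

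At one end, 3-qA3-2052 had 1 count at P10 and 95.7, 102 and 86.6 CPM at P18, against a heterozygous mean of 97.8 CPM, and 10-qA3-2592 climbed from 0.113, 0.469 and 0.128 to 287, 371 and 322 CPM with 229 CPM on average in heterozygotes. At the other, 12-qE-23911 had no counts at P10 and 3.54, 0.986 and 0.353 CPM at P18 against a heterozygous mean of 369 CPM, which is at least 15.9-fold above P10 in knockouts. The change was called lower at 7 intergenic loci, at 12 without P18 knockout replicate 2 and at 13 without P18 heterozygous replicate 3, and DESeq2 also called 12-qE-23911 (adjusted p = 0.00818). For 91 of the 99 loci the interval of the difference was not within 2-fold. The absence of a call thus does not show a like change there. The 7 called loci had 0.235 to 5.01 CPM at P10 in knockouts and 0.986 to 11.9 CPM at P18. Among them 6-qD1-2831 rose from 3.28, 4.11 and 3.21 to 11.9, 10.2 and 9.87 CPM (1.60 ± 0.16), and heterozygotes averaged 80.9 CPM at P18. At 10-qB4-6488 the P18 knockouts had 4, 6.08 and 3.53 CPM against 128 CPM (difference -4.65, adjusted p = 1.44e-06). Genic loci, which give piRNAs from gene transcripts, rose for 38 of 108 (35.2%, against 34.9% of all features) and fell for 23 (21.3%, against 33.2%), with a median of 0.12 in both genotypes. Their summed knockout level was 2630 to 2760 CPM at P10, 2020 and 2040 at P14, 2830 to 2920 at P18 and 1870 and 1890 at P28. Heterozygotes also stood lower at P14 and P28 than at P10 and P18. The waves above compare across these ages, and the cause was not tested.

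Round spermatid genes rose in knockouts about as often as all features did. Of 31 genes, 11 rose (35.5%, against 34.9%), all beyond 2-fold, 1 fell and 19 were not called, where heterozygotes had 26 rises. Zpbp2, of the acrosomal matrix, rose from 0.905, 0.469 and 0.385 to 135, 199 and 108 CPM (7.91 ± 0.30, adjusted p = 1.02e-14), and Zpbp and Actl7b by 4.94 and 8.32. Klhl10, a spermatid ubiquitin ligase adaptor, had 1.02, 1.64 and 1.28 CPM at P10 and 0.342, 1.15 and 0.529 CPM at P18, against 2.63, 3.56 and 14.2 CPM in heterozygotes. Acrv1, an acrosome protein, was at 0 in all P18 knockouts and at 1.64, 1.19 and 12.2 CPM in heterozygotes, where replicate 3 was the highest for both. Acrv1 was among 8 genes that were at 0 in every P18 knockout, and 9 of the 31 had at most 3 counts over each age. The summed levels overlapped between genotypes at P18 (1780 to 2380 and 1910 to 2200 CPM). The median change was 0.28 in knockouts (1.85 without those 9 genes and with genes at 0 at 1 age set to their bound) and 4.11 in heterozygotes, or 3.24 with 21 rises when replicate 3 was left out. The heterozygous medians cover all 31 genes with no bound, so they compare with 0.28 and not with 1.85.

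Elongating spermatid genes rose for 9 of 31 (29.0%, against 34.9% of all features) and fell for none, and 10 were at 0 in every P18 knockout. Tsga10, a tail component, rose from 13.6, 8.8 and 7.19 to 133, 172 and 142 CPM (3.90 ± 0.19), and Odf2, of the outer dense fibres and also of centrosomes, by 2.60 ± 0.12. Akap4, the main fibrous sheath protein, had 0.34, 0.352 and 0.385 CPM at P10, 0 in all P18 knockouts and 3.12, 0.922 and 13.3 CPM in P18 heterozygotes. The transition protein gene Tnp1 and the protamine gene Prm1 were at 0 to 0.352 CPM in all 6 knockout libraries. The median was 0.55 in knockouts, 2.43 computed in that way without the 15 genes at 3 counts or fewer at both ages, and 3.98 in heterozygotes (3.01 without replicate 3). Here too the heterozygous medians cover all 31 genes with no bound and are not matched to 2.43. No gene of either list was called for a difference, and the interval reached past 2-fold for 27 of the 31 round and 30 of the 31 elongating spermatid genes. DESeq2 did call the change as lower in knockouts for Akap4 (-7.62, adjusted p = 0.000198), Acrv1 (-8.31, 0.0133), Klhl10 (-3.46, 0.0283) and Tsga10 (-0.94, 0.0374). Klhl10 was also called by edgeR with no filter on low counts (adjusted p = 0.0473), and Akap4 without P18 heterozygous replicate 3 (0.0286).

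The X chromosome is silenced in spermatocytes. Of 655 X-linked genes tested, 363 fell in knockouts (55.4%, against 32.6% of 15380 autosomal genes and 33.2% of all features) and 53 rose (8.09%). The median change was -0.53 in both genotypes and 0.00 for autosomal genes. Between P10 and P14 the X-linked median was -0.08 in knockouts, and between P14 and P18 it was -0.44. No X-linked gene was called for a difference, and for 421 the interval was within 2-fold. H2afx, the histone whose phosphorylation marks the silenced sex body, rose from 52.2, 48.9 and 47.1 to 119, 121 and 124 CPM.

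**Figure D4:**
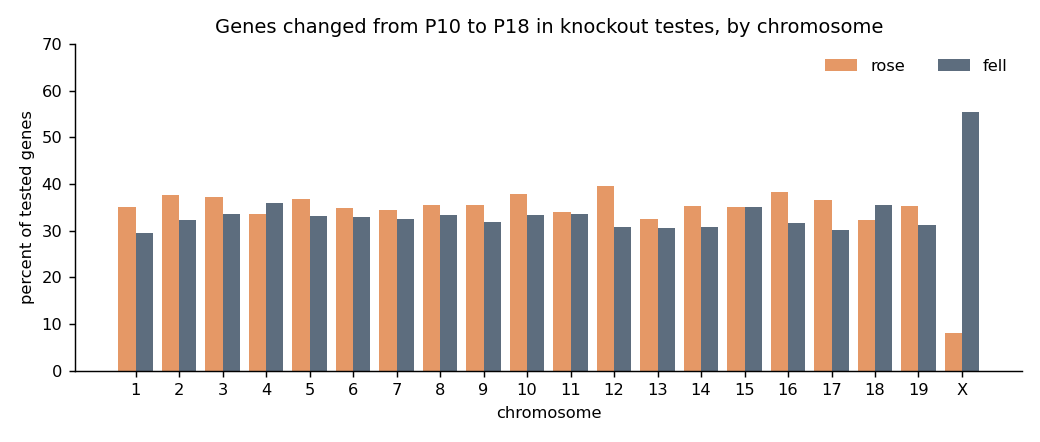
Percent of tested genes on each chromosome that rose (orange) or fell (grey) from P10 to P18 in knockout testes at an adjusted p below 0.05. On the autosomes 29.6% to 35.9% fell, and on the X chromosome 55.4%.

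Autosomal retrogenes, intronless copies that stand in for silenced X-linked parents, rose for 11 of 14 (78.6%, against 34.9% of all features) and fell for 1. Of 12 X-linked parents 10 fell (83.3%, against 33.2% of all features) and none rose. Cetn1, a centrin, went from 0.453, 0 and 0.128 to 147, 196 and 124 CPM as its parent Cetn2 fell from 24.4, 25.5 and 24.8 to 15.5, 12.6 and 16 CPM. Utp14b, of ribosomal RNA processing, rose by 0.72 ± 0.12, and Utp14a fell by 0.87 on the log2 scale. Rbmxl2, of RNA binding, rose by 1.63 ± 0.10 and its parent Rbmx fell by 0.84, and Cstf2t, of RNA cleavage, rose by 1.07 ± 0.09 and Cstf2 fell by 0.50. Zfa-ps rose from 2.94, 1.29 and 2.95 to 30.9, 36.1 and 35.3 CPM, and Zfx fell by 0.47 on the log2 scale. Rpl39l rose by 2.70 ± 0.17, and the fall of Rpl39 by 1.26 was lost without P10 knockout replicate 1 (adjusted p = 0.0773). Gk2, of glycerol kinase, had 1 count at P10 and 194, 287 and 180 CPM at P18, a ratio of 5470 (counting interval 982 to 216000), and its parent Gyk was not called. Pdha1 fell by 0.61 and Ubl4 by 0.74, and Ubl4b had 1 count in all. Rpl10l rose by 2.46 ± 0.10. Its parent Rpl10 fell from 2.26, 2.23 and 1.67 to 1.03, 1.48 and 0.529 CPM, a call that 5 alternatives lost (adjusted p up to 0.0924). Pgk2, the phosphoglycerate kinase of germ cells, had 3 counts at P10 and 73.9, 126 and 71.6 CPM at P18, a ratio of 743 (counting interval 254 to 3610), and Pgk1 was not called. Gykl1, a glycerol kinase copy, had none at P10 and 92, 125 and 90.5 CPM at P18, at least 850-fold higher. G6pd2 was the 1 retrogene that fell, from 6.68, 7.63 and 6.29 to 4.91, 4.76 and 4.58 CPM, and DESeq2 and 3 left-out libraries ended that call (P10 replicate 2, and P18 replicates 2 and 3, adjusted p up to 0.101). Near-identical copies can share reads, so levels within a pair are uncertain.

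Spermatogonial markers fell for 23 of 25 (92.0%, against 33.2% of all features), 16 beyond 2-fold, with medians of -1.67 and -1.60 in the 2 genotypes. Zbtb16 (PLZF), of undifferentiated spermatogonia, went from 98.2, 127 and 129 to 44.8, 33 and 32.3 CPM. Kit, the receptor of differentiating spermatogonia, fell from 193, 216 and 193 to 110, 85.2 and 97.3 CPM (-1.03 ± 0.13, adjusted p = 6.71e-07) and Dmrt1 by 1.53 on the log2 scale. Id4, which marks stem spermatogonia and is also read in spermatocytes, rose from 6.9, 8.45 and 7.45 to 58.5, 77 and 67 CPM. Replication and proliferation genes fell for 11 of 18 (61.1%, against 33.2% of all features) and rose for 6 (33.3%, against 34.9%).

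Sertoli cell markers fell for 15 of 22 (68.2%, against 33.2% of all features) and rose for 3 (13.6%, against 34.9%), Tsx, Espn and Trf. Amh, the hormone of immature Sertoli cells, dropped from 316, 366 and 346 to 47.5, 33.8 and 39.3 CPM (-3.08 ± 0.16, adjusted p = 6.49e-13). Sox9, the Sertoli cell determinant, went from 223, 254 and 223 to 94, 77.2 and 78.3 CPM, and in heterozygotes from 290, 332 and 261 to 61.2, 60.3 and 72 CPM. Its fall was smaller in knockouts by 0.70 (95% interval 0.41 to 1, adjusted p = 0.0495), a call at the threshold that 12 alternatives lost (adjusted p up to 0.172). The summed Sertoli level was 8490 to 9490 CPM at P10 and 5270 to 6230 CPM at P18 in knockouts, against 9270 to 10500 and 4560 to 5400 CPM in heterozygotes.

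Among other somatic lists, peritubular and smooth muscle markers fell for 9 of 10 (90%, against 33.2% of all features) with a median of -0.46. They fell for 6 without P18 knockout replicate 2. In heterozygotes 3 of these markers fell and 1 rose, with a median of -0.22, and none was called for a difference. Endothelial markers fell for 6 of 10 (60%, against 33.2% of all features). Macrophage markers rose for 2 of 14 (14.3%, against 34.9%). They rose for 5 without P18 knockout replicate 2, 4 without P10 knockout replicate 1 and 1 when any other of these knockout libraries was left out. Leydig cell markers rose for 4 of 14 and fell for 4 (28.6% each, against 34.9% and 33.2% of all features). Insl3, a Leydig cell hormone, had 24.4, 2.46 and 7.93 CPM at P18 in knockouts against 5.89, 5.52 and 4.49 CPM at P10, so its rise of 1.23 ± 0.46 rested on replicate 1 and was -0.05 without it. Summed adipocyte markers were 51.6 to 57.1 CPM at P10 and 40.7 to 56.2 CPM at P18 in knockouts, but 79.7 and 227 CPM in the 2 P14 knockout libraries, so 1 of the P14 libraries stood apart in these. All 6 globin genes listed had no count at either age. Genes of p53 and apoptosis, induced when spermatocytes are damaged, rose for 4 of 15 (26.7%, against 34.9% of all features) and fell for 8 (53.3%, against 33.2%). Their median was -0.61 against -0.81 in heterozygotes, with Mdm2 up by 1.46 ± 0.09 and Bax down by 0.95.

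Among genes outside the lists, some of those with the smallest p-values are given here. Tcam1, an adhesion molecule of spermatocytes, rose from 11.2, 9.04 and 10 to 361, 448 and 388 CPM. Ldhal6b, a retrogene of lactate dehydrogenase, rose by 10.24 ± 0.29. The fallers included H19, an imprinted RNA, from 225, 208 and 193 to 14.2, 6.08 and 12.7 CPM (-4.22 ± 0.18, adjusted p = 3.37e-14), the imprinted factor gene Plagl1 (-2.41), the thyroid hormone receptor gene Thra (-2.15), and Nedd9 (-3.21), Wwtr1 (-2) and Jun (-1.80). All of these were picked from features that separated the 3 P10 from the 3 P18 libraries, so their separation was set by the choice. Of all features 34.8% separated upward and 33.5% downward.

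From P18 to P28, 3664 features rose in knockouts (22.4%) and 2968 fell (18.2%), 40.6% together. Late pachytene genes rose for 17 of 21 (summed 13200 and 13400 CPM in knockouts at P28, 22300 and 23700 CPM in heterozygotes). Ldhc reached 2630 and 2610 CPM. Round spermatid genes rose for 6 of 31 and stood at 3000 and 3040 CPM against 10700 and 11200 CPM, and elongating spermatid genes rose for 4 of 31 and stood at 1230 and 1280 CPM against 19600 and 21200 CPM. These later ages share the P18 libraries with the comparison above and are given beside it only.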

How the data were processed

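Whole-testis poly(A) RNA was measured in 20 libraries. Per the submitters' processing notes, the tools named were TopHat2 2.1, Cufflinks, cutadapt 1.8.1 and, for featureCounts, Subread 1.4.6-p3, with build mm10. Strand, overlap and multi-match settings are not given in the sources used here, and the kit is not described as strand-marking. The authors deposited raw read counts per feature, used as deposited. In edgeR 4.0.16 (R 4.3.3) all 20 libraries entered 1 fit with a coefficient per group (filterByExpr, TMM, quasi-likelihood F test, prior count 0.125, Benjamini-Hochberg over 16334 features, adjusted p below 0.05). Beyond 2-fold means glmTreat at log2 1, also edgeR. The biological coefficient of variation was 0.0901. The scripts were tested on simulated data. DESeq2 1.42.0 was an alternative, with other scalings, filters, libraries and a replicate block. Gene coordinates came from the RefSeq table (GRCm38.p6). The members and lists were chosen with earlier results of these data known. Genes were named from those a rule picked: Btbd18, the smallest p-values with library ranges apart, list members marked as key or with the smallest p-values, called differences, the strongest piRNA loci and retrogene pairs. Other list members were named after their values were seen. Intervals of ratios cover counting error only. Not all that it picked are described.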

Additional observations from a re-analysis of the deposited data

Results flagged for a closer look

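The change from P10 to P18 differed between knockout and heterozygous testes, by edgeR's test of the difference at an adjusted p below 0.05, for 25 features. Values are log2 differences, knockout change minus heterozygous change. Lower in knockouts were 7 intergenic piRNA loci: 15-qD1-4001 (-4.67), 10-qB4-6488 (-4.65), 17-qE1.1-7037 (-4.10), 9-qC-10667 (-3.99), 15-qE1-1119 (-3.49), 10-qC1-1527 (-3.17) and 6-qD1-2831 (-2.97).

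Lower in knockouts were also 11 genes. Hipk4 (-4.22), a kinase gene of spermatids, had 2.38, 1.17 and 2.05 CPM at P10 and 0.571, 0.164 and 0 CPM at P18 in knockouts, against 4.1, 3.29 and 10 CPM in P18 heterozygotes, where replicate 3 was the highest. Chst1 (-3.48), which encodes a sulfotransferase, stayed at 2.29 to 5.82 CPM at P18 in knockouts where heterozygotes averaged 66 CPM. The zinc finger gene Zfp820 (-2.76) had 7.31, 6.41 and 8.11 CPM against 35.9 CPM. The others were 9430018G01Rik (-1.99), Gstt2 (-1.85), Stambp (-1.33), Herc6 (-1.24), Rab27a (-1.10), Plk1 (-0.85), BC027231 (-0.76) and Ttbk2 (-0.57). Stambp, a deubiquitinase gene, did rise in knockouts, to 61.2, 61.6 and 81.8 CPM, against 157 CPM in heterozygotes.

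Higher in knockouts were 7 genes: Aplp1 (0.98), Flrt1 (0.81), Sox9 (0.70), Prelid1 (0.66), Pnkd (0.57), Scara5 (0.53) and Golga2 (0.52). Aplp1, of the amyloid precursor family, rose from 8.49, 10.9 and 8.48 to 34.1, 31.7 and 29.1 CPM in knockouts, and heterozygotes averaged 22.6 CPM at P18. Golga2, a Golgi matrix gene, reached 229, 254 and 236 CPM against 174 CPM. Both rose in each genotype. Of the 25 calls, 17 were lost in at least 1 alternative: Aplp1 in 10 (adjusted p up to 0.15), Golga2 in 4, BC027231 in 14, and Ttbk2, Rab27a, Sox9 and 9430018G01Rik in 12 each.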

How the results depend on the processing

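The counts of features that rose or fell in knockouts kept within 1.5 times of the reported ones in every setting tried, except the falls beyond 2-fold, which were 1590 with total counts and 542 with DESeq2 (heterozygotes 2231 and 816). The difference between genotypes was the least stable result. It called 19 features higher and 66 lower with no filter on low counts, 64 and 116 with DESeq2, and 1 and 10 with only the 12 libraries of P10 and P18. Leaving out 1 library at a time gave 1 to 73 higher and 10 to 124 lower. For single genes, the rise of Insl3 was reversed (-0.05, adjusted p = 0.929) without P18 knockout replicate 1, and leaving out single libraries gave -0.05 to 1.71. The causes were not tested.

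With the replicate number as a block the knockout counts were 5675 and 5361, or 2380 and 975 beyond 2-fold, and the difference called 4 and 19. Numbers of the labels did not pair the knockout libraries of P10 with those of P18. Correlations of same-numbered deviations between P10 and P18 knockouts were 0.0463, -0.0155 and 0.0207, and only replicate 1 of the P10 knockouts correlated best with its own number. Between genotypes the same-numbered correlations were 0.0529, 0.0748 and 0.027 at P10, where each library correlated best with its own number. At P18 they were -0.221, -0.0962 and -0.114. Whether same-numbered P10 libraries share a source was not tested. Leaving the P14 knockout libraries out of the fit, a setting chosen after the data were seen, gave 5891 and 5125. At the depth of these libraries, genes under about 3 counts over a group could not be followed.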
